A study of Canis lupus familiaris with 12 samples.

Results

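The SHANK, DLG and HOMER genes encode the scaffold proteins of the postsynaptic density, and their transcripts were followed in hippocampus of beagles after rapid atrial pacing or a sham operation. The members were chosen by symbol, as the rows of the hippocampal table that carry 1 of 10 listed names. Of the 10 symbols, 9 were matched among the 31158 gene models of the table: SHANK1, SHANK2, SHANK3, DLG1, DLG2, DLG3, DLG4, HOMER1 and HOMER3. HOMER2 was not analysed here. The pacing arm had received rapid atrial pacing for 2 weeks, a fast electrical stimulation used to bring on atrial fibrillation, and the sham arm an operation only. All dogs were beagles; the labels give neither their age, nor the part of the hippocampus taken, nor whether each library came from a separate dog. The study set out to relate atrial fibrillation to cognitive impairment, and each arm was represented by 3 hippocampal mRNA libraries, 6 in all.

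The postsynaptic density is a protein mesh beneath the membrane of excitatory synapses. DLG proteins (DLG4 is PSD-95, DLG1 is SAP97, DLG2 is PSD-93 and DLG3 is SAP102) lie next to the membrane and hold glutamate receptors and adhesion proteins through their PDZ domains. DLGAP proteins join them to SHANK proteins, which lie deeper and connect to the actin cytoskeleton. HOMER proteins bind SHANK and link it to glutamate receptors and to calcium release channels. In rodents a short form of HOMER1, Homer1a, is induced rapidly by neuronal activity and uncouples these links; values per gene do not separate it from the long forms.

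The libraries held 35003483 to 43425895 reads assigned to genes in pacing and 36573169 to 51789497 in sham. The unit is RPKM, in which the reads of a gene are divided by its exon length and by the library's assigned reads, so levels can be compared between genes to the extent that the annotated exons are complete. On the first principal component of all tested genes, with 45.3% of the variance, sham replicate 2 lay at 39.6, sham replicate 3 at 8.61 and the other libraries between -13.5 and -9.62. On the second, with 25.5% of the variance, sham replicate 3 lay at -29.1 and the other libraries between -6.21 and 13.6. Where leaving out sham replicate 2 moved a difference markedly or turned it, the value without it is given beside it. Markers of hippocampal granule and pyramidal cells were present, all 9 of 9 listed being above the filter, whereas 5 of 10 markers of striatum, thalamus and cerebellum fell below it. Mean levels of the hippocampal markers ran from DSP (0.626 RPKM in pacing, 0.542 in sham) to CALB1 (18.3 in pacing, 16.7 in sham). The highest marker of the other regions was LEF1, at 5.01 RPKM in pacing and 5.99 RPKM in sham. How pure the dissections were was not tested. Replicates may be technical, and p-values measure only the spread between these libraries.

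All 9 scaffold genes had a mean RPKM of at least 0.5 and were tested. Per length, DLG4 had the highest level, with a mean of 46.9 RPKM over the 6 libraries, above 91.3% of the 16090 tested genes. It was followed by DLG2 at 40.3, HOMER1 at 38.9, DLG1 at 32.2, DLG3 at 30.8, HOMER3 at 28.1, SHANK1 at 22.8, SHANK3 at 4.45 and SHANK2 at 3.55 RPKM. Of the 8 neighbouring pairs in this order, 7 had ranges that overlapped. The step from SHANK1 to SHANK3 separated the ranges, and SHANK3 lay above SHANK2 within each of the 6 libraries although their ranges overlapped. DLG1 lay above DLG3 in 3 of 6 libraries, so that pair had no order. The fewest reads behind any member value were 717, for SHANK3 in sham replicate 3, and the most were 26194, for DLG2 in sham replicate 1.

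The models are spread over 9 chromosomes of the dog, on the sequence names of assembly CanFam3.1. SHANK1 lies on chromosome 1 from 106086094 to 106128700 with 4058 bases of exon, SHANK2 on chromosome 18 from 47477625 to 47915557 with 10495 bases and SHANK3 on chromosome 10 from 16621445 to 16665366 with 5543 bases. DLG1 lies on chromosome 33 from 30016323 to 30253180, DLG3 on chromosome X from 54886700 to 54941502 and DLG4 on chromosome 5 from 32165399 to 32175600. HOMER1 lies on chromosome 3 from 27395337 to 27525822 and HOMER3 on chromosome 20 from 44179145 to 44186814. DLG2, on chromosome 21 from 13796725 to 15776601, is the longest, with 40 separate exon blocks and 12199 bases of exon. DLG2 was the member that shared exon bases with other models. LOC106560178, on the opposite strand, overlaps it over 164 bases and had 185 ± 9.91 RPKM in pacing libraries and 186 ± 43.1 RPKM in sham libraries (SD, 3 each). How the count treated strand is not stated, so reads in that overlap cannot be assigned to a strand. LOC106560177, on the same strand, overlaps DLG2 over 99 bases.

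**Figure D1:**
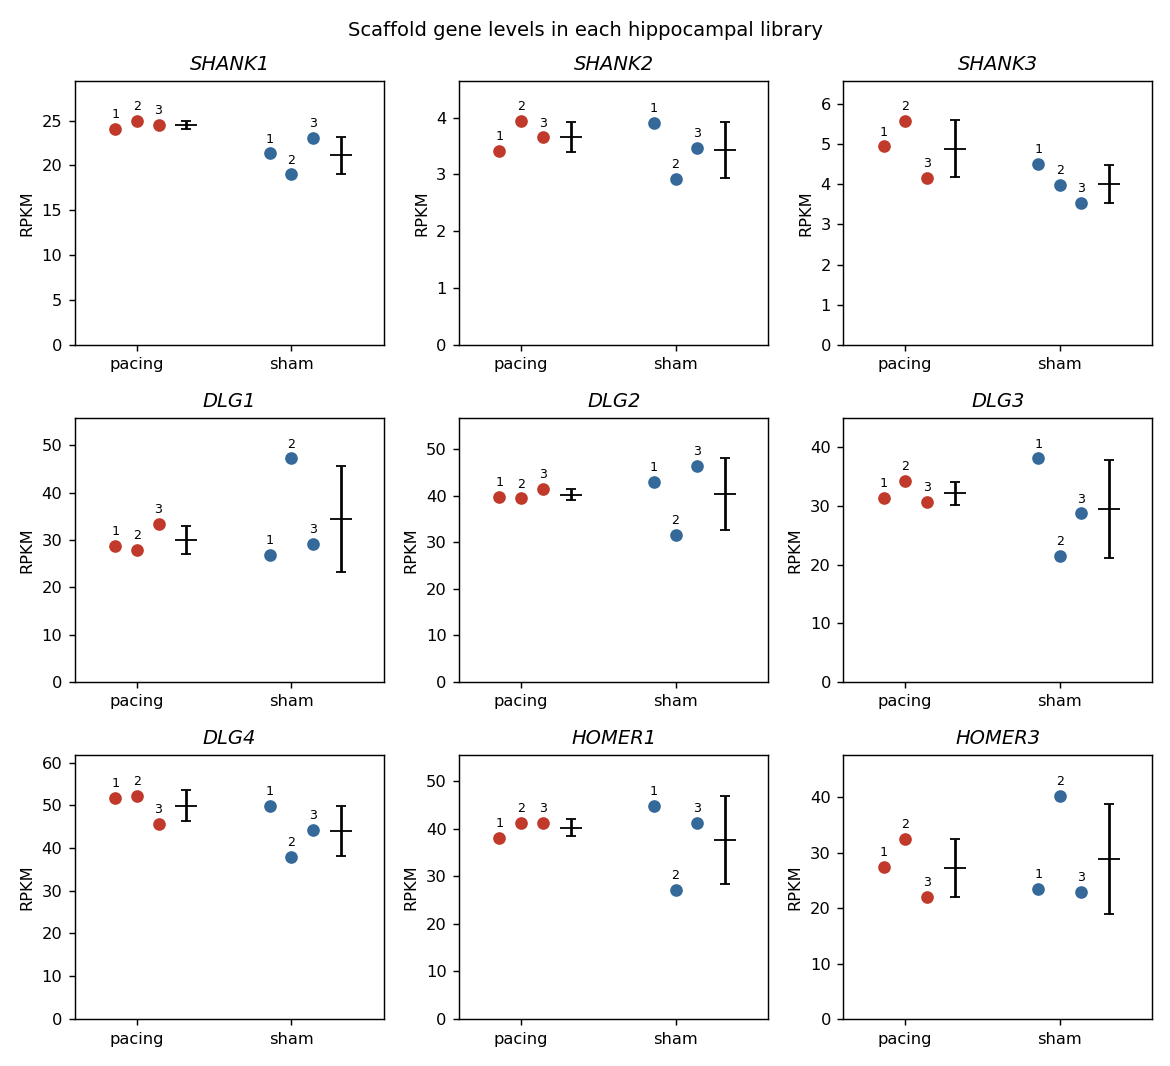
RPKM (linear axis from 0) of the 9 scaffold genes in each hippocampal library, with pacing in red, sham in blue, replicate numbers above the points and bars for mean ± SD (n = 3 each). SHANK1 is the gene whose arms do not overlap, and sham replicate 2 is the highest point for DLG1 and HOMER3 and the lowest for SHANK1, SHANK2, DLG2, DLG3, DLG4 and HOMER1.

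The comparison of pacing with sham asked whether pacing went along with other scaffold transcript levels in the brain. None of the 9 members passed an adjusted p of 0.05 with limma, and 0 of 9 had an unadjusted p under 0.05, against 9.15% of all tested genes. Over all tested genes 0.0249% passed, 4 of 16090. By arm mean on the log2 scale 7 of 9 members were higher in pacing, where 41.1% of all tested genes were, with a median log2 difference of 0.12 for the members and -0.04 for all genes. Without sham replicate 2 the members were split, 5 higher and 4 lower.

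SHANK1, the SHANK protein with the highest transcript level here, was measured at 24.1, 24.9 and 24.5 RPKM in pacing and at 21.3, 19.0 and 23.1 RPKM in sham. Every pacing library lay above every sham library, which held for 16.2% of tested genes in either direction and 4.92% in this one. The log2 difference was 0.21 (95% interval -0.02 to 0.44, adjusted p = 0.581 with limma), and it was 0.14 without sham replicate 2. The pacing libraries were close to each other, with an SD of 0.412 RPKM around 24.5, while the sham libraries had an SD of 2.06 around 21.1.

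SHANK3, the member whose human gene is deleted or mutated in Phelan-McDermid syndrome, was measured at 4.95, 5.58 and 4.16 RPKM in pacing and at 4.51, 3.99 and 3.54 RPKM in sham. The arms overlapped, because pacing replicate 3 lay below sham replicate 1. The log2 difference was 0.23 (95% interval -0.07 to 0.54, adjusted p = 0.613 with limma) and was also 0.23 without sham replicate 2. SHANK2, the least abundant member per length, was measured at 3.41, 3.93 and 3.65 RPKM in pacing and at 3.91, 2.91 and 3.47 RPKM in sham. Sham replicate 1 was close to the highest pacing library and sham replicate 2 was the lowest of the 6. The log2 difference was 0.08 (95% interval -0.20 to 0.36, adjusted p = 0.852), and -0.0065 without sham replicate 2.

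Of the DLG genes, DLG4, which encodes PSD-95, was measured at 51.8, 52.3 and 45.7 RPKM in pacing and at 49.7, 37.8 and 44.3 RPKM in sham. Its arms overlapped, with sham replicate 1 above pacing replicate 3. The log2 difference was 0.18 (95% interval -0.10 to 0.47, adjusted p = 0.656 with limma), and 0.083 without sham replicate 2.

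DLG3, encoded on the X chromosome and known in rodents as the DLG protein of early postnatal synapses, was measured at 31.4, 34.3 and 30.7 RPKM in pacing and at 38.1, 21.5 and 28.7 RPKM in sham. The sham libraries held both the highest and the lowest value. The log2 difference of 0.16 (adjusted p = 0.813 with limma) turned to -0.044 without sham replicate 2. DLG2, the PSD-93 gene, was measured at 39.8, 39.4 and 41.5 RPKM in pacing and at 43.0, 31.7 and 46.3 RPKM in sham. All pacing libraries lay inside the range of the sham libraries. Its log2 difference was 0.01 (95% interval -0.33 to 0.36, adjusted p = 0.981), and it was -0.15 without sham replicate 2 and -0.0079 without pacing replicate 3.

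DLG1, whose protein SAP97 is also made outside neurons, went the other way by arm mean. It was measured at 28.7, 27.9 and 33.4 RPKM in pacing and at 26.8, 47.3 and 29.2 RPKM in sham. Sham replicate 2 was 1.62 times the mean of the other 5 libraries, which lay between 26.8 and 33.4 RPKM. The log2 difference of -0.15 (95% interval -0.64 to 0.34, adjusted p = 0.836 with limma) turned to 0.093 without sham replicate 2.

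HOMER1 was measured at 38.1, 41.2 and 41.2 RPKM in pacing and at 44.7, 27.2 and 41.2 RPKM in sham. Sham replicate 2 was 0.658 times the mean of the other 5 libraries, which lay between 38.1 and 44.7 RPKM. The log2 difference of 0.12 (95% interval -0.30 to 0.54, adjusted p = 0.857 with limma) turned to -0.094 without sham replicate 2. HOMER3, in rodents the HOMER gene best known from cerebellar Purkinje cells, was measured at 27.4, 32.5 and 22.0 RPKM in pacing and at 23.4, 40.4 and 23.0 RPKM in sham. It was the member that varied most within pacing, with an SD of 5.27 RPKM around 27.3, and sham replicate 2 was 1.57 times the mean of the other 5 libraries. The log2 difference was -0.050 (95% interval -0.61 to 0.51, adjusted p = 0.956). It was 0.21 without sham replicate 2 and 0.092 without pacing replicate 3, and 0.012 under median-of-ratios scaling.

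**Figure D2:**
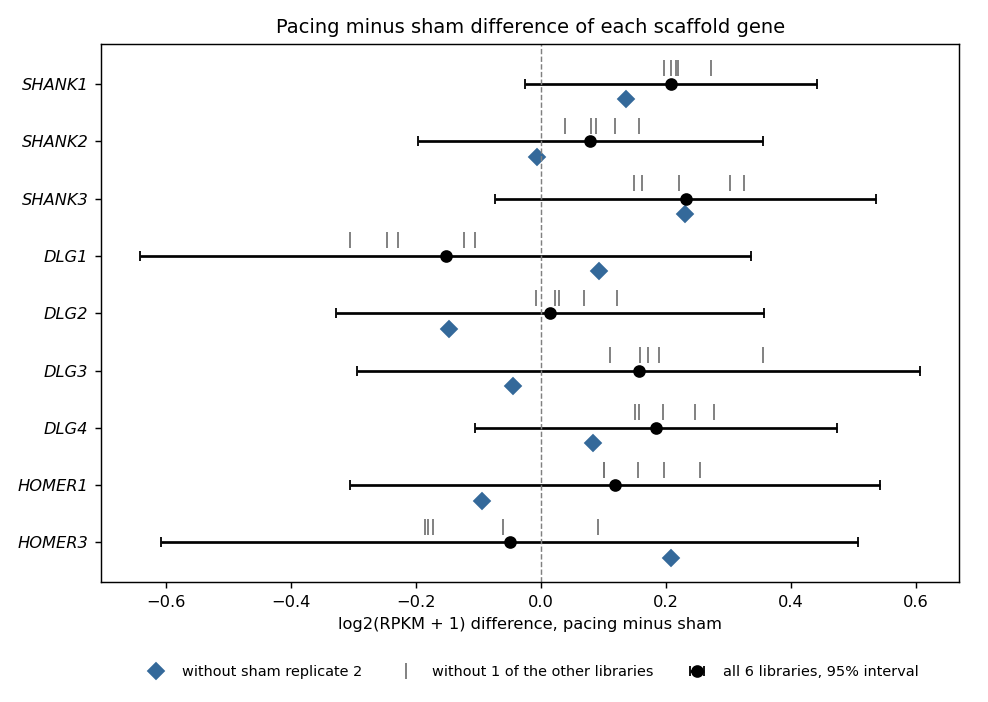
Differences of log2(RPKM + 1), pacing minus sham, for the 9 scaffold genes; black points and bars give the limma estimate from all 6 libraries with its 95% interval, diamonds the estimate without sham replicate 2 and grey ticks those without 1 of the other libraries. Every interval from all 6 libraries includes 0, and the diamonds of SHANK2, DLG1, DLG2, DLG3, HOMER1 and HOMER3 lie across 0 from their points.

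Library-to-library spread was larger in sham than in pacing for 8 of 9 members, SHANK3 being the exception, and for 78.8% of all tested genes. The median SD of log2(RPKM + 1) was 0.083 in pacing and 0.28 in sham over the members, and 0.091 in pacing and 0.19 in sham over all tested genes. For 8 of 9 members the library farthest from the mean of all 6 was sham replicate 2, which held for 41.5% of all tested genes. In that library 6 members (SHANK1, SHANK2, DLG2, DLG3, DLG4 and HOMER1) had their lowest value and 2 (DLG1 and HOMER3) their highest. On the log2 scale sham replicate 2 lay below the mean of the other 5 libraries by values from -0.25 for SHANK2 to -0.58 for HOMER1 among those 6, and above it by 0.68 for DLG1 and 0.65 for HOMER3.

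Cell type markers also differed in sham replicate 2. Over all tested genes 33.0% had their highest value in sham replicate 2 and 24.0% their lowest. Pan-neuronal markers were lowest in sham replicate 2 for 10 of 12 genes, and their summed level ran from 3385 to 3560 RPKM in pacing and from 2431 to 3828 RPKM in sham. The Pearson r of a member with the pan-neuronal list mean changed sign without sham replicate 2 for SHANK1, SHANK2, DLG1, DLG3, DLG4 and HOMER1. It kept its sign for SHANK3, DLG2 and HOMER3. For SHANK1 it was 0.67 over all libraries and -0.37 without sham replicate 2, and for DLG2 0.97 and 0.88. With the excitatory neuron list mean, r changed sign for DLG2 (0.16 and -0.85) and HOMER3 (-0.027 and 0.80). It kept its sign for the remaining members, among them DLG4 (0.84 and 0.84), DLG1 (-0.61 and -0.32) and HOMER1 (0.53 and 0.037). Oligodendrocyte and myelin markers were highest in sham replicate 2 for 8 of 8 genes, with summed levels from 1551 to 1921 RPKM in pacing and from 1116 to 2813 RPKM in sham. Astrocyte markers were highest there for 4 of 7 genes (2039 to 2303 RPKM in pacing, 1802 to 3128 RPKM in sham). Choroid plexus and ependymal markers were highest there for 2 of 8 tested genes, with a summed level of 89.2 to 182 RPKM in pacing and 40.7 to 469.6 RPKM in sham, the maximum being sham replicate 2. TTR, the transthyretin gene of choroid plexus, made up most of the sum in sham replicate 2, with 449.1 RPKM. RSPH1, a gene of motile cilia, had 13.2 RPKM there, against 28.8 and 24.8 RPKM in the other sham libraries. Excitatory and inhibitory neuron markers were lowest there for 4 of 8 genes each, and microglial and endothelial markers highest for 3 of 7 genes each. None of these markers was at 0 in all libraries. In bulk tissue, fewer cells of a type and less RNA per cell cannot be told apart, and the part of these cell types in the scaffold values was not tested.

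Immediate early genes, which neuronal activity and tissue handling induce, were highest in sham replicate 2 for 7 of 8 tested genes. The exception was BDNF, which had its lowest value there, 2.23 RPKM. The summed level of the list was 16.1 to 18.3 RPKM in pacing and 18.5, 49.1 and 28.5 RPKM in sham replicates 1, 2 and 3. HOMER1 had its lowest value in sham replicate 2, 27.2 RPKM. The part of handling or activity in this value was not tested.

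**Figure D3:**
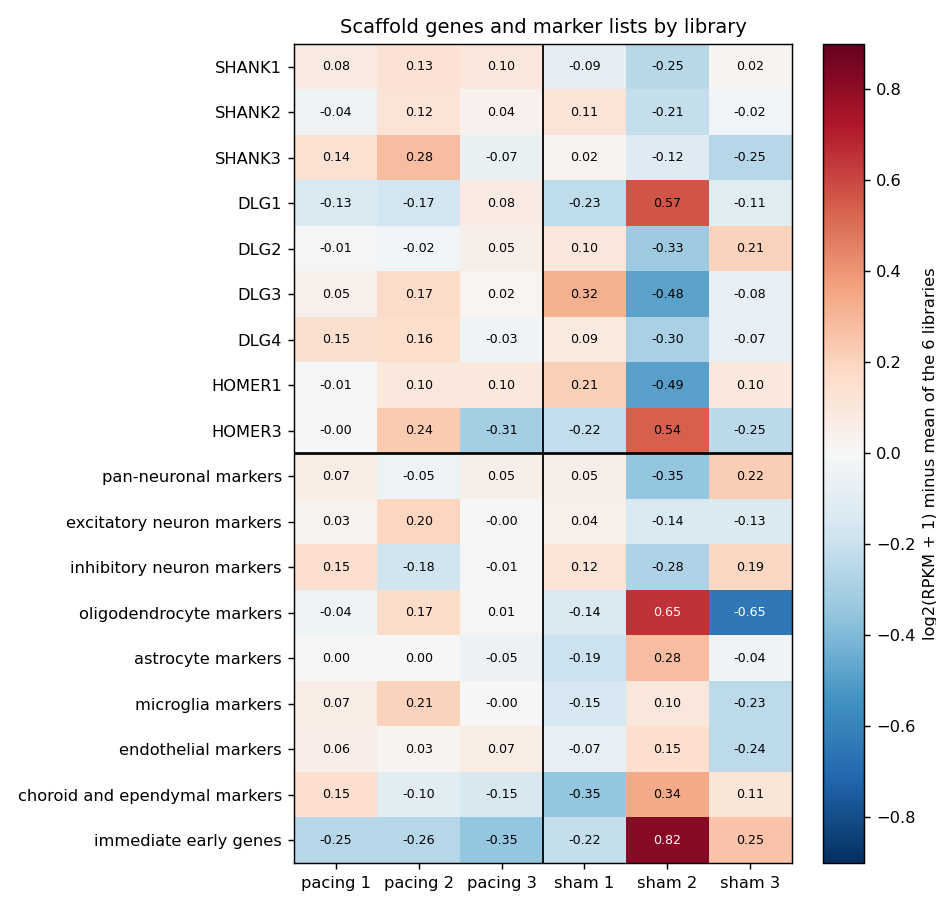
Deviation of log2(RPKM + 1) from the mean of the 6 libraries for each scaffold gene (upper block) and for the mean of each marker list (lower block), with pacing libraries left of the vertical line and sham libraries right of it. In sham replicate 2, DLG1 (0.57) and HOMER3 (0.54) are positive. So are the immediate early (0.82), oligodendrocyte (0.65), choroid and ependymal (0.34), astrocyte (0.28), endothelial (0.15) and microglia (0.10) lists. The remaining members are negative, as are the pan-neuronal (-0.35), inhibitory neuron (-0.28) and excitatory neuron (-0.14) lists.

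Among themselves, the members' correlations depended on that library. The 6 libraries differed in assigned reads and in cell type marker levels, which act on all members measured in a library. Over these libraries 22 of 36 member pairs had a positive Pearson r of log2(RPKM + 1). Without sham replicate 2 it was 18 of 36, with the sign changed in 16 pairs. DLG1 and HOMER1 had an r of -0.93 over 6 libraries and -0.30 over the remaining 5. SHANK1 and HOMER1 had 0.70 over 6 and -0.70 over 5. SHANK2 with DLG3 kept a similar value, 0.95 over 6 and 0.82 over 5, and so did SHANK3 with DLG4, 0.75 over 6 and 0.95 over 5. These values describe 6 libraries and carry no test.

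The composition of each family does not depend on how libraries are scaled. SHANK1 made up 74.1 ± 1.72% of the summed RPKM of the SHANK genes in pacing, against 73.9 ± 2.56% in sham (SD, n = 3 each). SHANK2 made up 11.1 ± 0.504% in pacing and 12 ± 1.02% in sham, and SHANK3 14.8 ± 1.71% in pacing and 14.1 ± 2.04% in sham. Over the 6 libraries SHANK1 lay between 71.7% and 76.7% of the sum, and sham replicate 2, at 73.3%, lay inside the range of the other 5 libraries. The difference in the SHANK1 share was -0.0753 percentage points without that library. The summed level of the SHANK genes was 32.5, 34.4 and 32.3 RPKM in pacing and 29.7, 25.9 and 30.1 RPKM in sham, and the arms did not overlap; most of this sum is SHANK1.

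DLG4 made up 32.8 ± 2.23% of the summed DLG RPKM in pacing and 29.6 ± 2.10% in sham, the DLG share with the smallest p in a two-sided exact permutation test (p = 0.2, adjusted p = 0.9 over the 9 members). The smallest p that 3 libraries against 3 allow is 0.1. DLG2 made up 26.4 ± 0.95% in pacing and 27.1 ± 4.15% in sham, and DLG3 21.1 ± 1.06% in pacing and 19.7 ± 4.33% in sham. DLG1 made up 19.7 ± 2.07% in pacing and 23.6 ± 9.26% in sham. In sham replicate 2 DLG1 held 34.2% and was the largest DLG share, whereas it lay between 17% and 22.1% in the other 5 libraries. Without sham replicate 2 the differences in share, pacing minus sham, were 1.39 percentage points for DLG1, -2.79 for DLG2 and -0.667 for DLG3, so the direction turned for DLG1 and DLG3. The summed DLG level was 152 ± 1.44 RPKM in pacing libraries, against 148 ± 9.72 RPKM in sham libraries.

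Of the summed RPKM of HOMER1 and HOMER3, HOMER1 held 58.2, 55.9 and 65.2% in pacing and 65.6, 40.3 and 64.2% in sham (difference 3.08 percentage points, exact permutation p = 0.9, adjusted p = 0.9). Sham replicate 2 was the library in which HOMER3 exceeded HOMER1, with 59.7% of the sum. Without sham replicate 2 the HOMER1 share averaged 64.9% in sham, and the difference was -5.14 percentage points. The sum of both genes was 67.5 ± 5.56 RPKM in pacing and 66.6 ± 2.14 RPKM in sham.

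**Figure D4:**
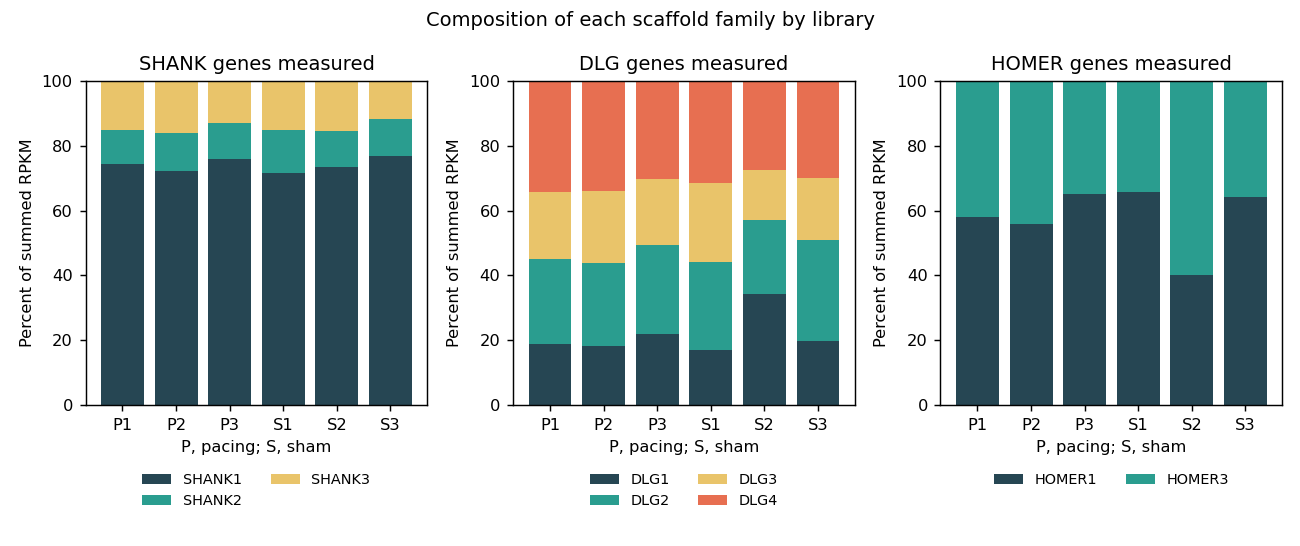
Percent of the summed RPKM of the measured SHANK, DLG and HOMER genes held by each gene, in the pacing libraries (P1 to P3) and the sham libraries (S1 to S3). SHANK1 lies between 71.7% and 76.7% in all 6 libraries, while sham replicate 2 has 34.2% DLG1 and 59.7% HOMER3.

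Genes around these scaffolds were examined as 7 lists chosen by role. The lists hold binding partners, enzymes that act on PSD-95 and other scaffolds with a guanylate kinase domain, together called partner genes here. Of 68 partner genes outside the members, limma called 0, and 3 (CACNG3, LRRC7 and IQSEC1) had an unadjusted p under 0.05, against 9.15% of all tested genes. All 3, or 4.41% of the 68, were higher in pacing. Of the 1473 tested genes with a limma unadjusted p under 0.05, 459 were higher in pacing, or 2.85% of all tested genes. Without sham replicate 2 there were 5, against 11.7% of all tested genes, and IQSEC1 was the gene in both sets. The others were ARHGAP44, which was higher, and SIPA1L1, LIN7A and CACNA1D, which were lower by arm mean; SIPA1L1 and LIN7A are named because of these values. The arms did not overlap for 7 of 68 partner genes, or 10.3%, against 16.2% of all tested genes. Pacing lay above sham for 6 of the 68, against 4.92% of all tested genes, and below for 1, against 11.3%. By arm mean 45 of 68 were higher in pacing, against 41.1% of all tested genes, with a median log2 difference of 0.075. Without sham replicate 2 it was 36 of 68.

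The DLGAP linkers were higher by arm mean in 4 of 4 genes (median log2 difference 0.20), and all 4 had their lowest value in sham replicate 2; without it 2 of 4 were higher (median -0.0060). DLGAP3 was measured at 10.7, 11.9 and 9.50 RPKM in pacing and at 9.42, 7.77 and 9.21 RPKM in sham, with no overlap of the arms (log2 difference 0.26, adjusted p = 0.571 with limma, and 0.18 without sham replicate 2). DLGAP1 was measured at 29.7, 31.2 and 29.6 RPKM in pacing and at 34.6, 13.5 and 29.0 RPKM in sham. Its low sham value was again sham replicate 2, and its log2 difference of 0.32 turned to -0.067 without that library. DLGAP2 had the lowest level of the DLGAP genes named, at 2.67 ± 0.0826 RPKM in pacing libraries, against 2.35 ± 0.619 RPKM in sham libraries. Its log2 difference of 0.15 was 0.021 without sham replicate 2.

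Of 15 cytosolic partners of the DLG proteins, 11 were higher by arm mean (median log2 difference 0.17) and 0 were called; 10 of 15 were higher without sham replicate 2 (median 0.067). LRRC7, densin, a protein of the postsynaptic density that binds CaM kinase II, was measured at 20.3, 24.2 and 21.3 RPKM in pacing and at 19.9, 11.8 and 14.3 RPKM in sham. Every pacing library lay above every sham library, although pacing replicate 1 exceeded sham replicate 1 by little (log2 difference 0.51, adjusted p = 0.483 with limma, and 0.35 without sham replicate 2). IQSEC1, an exchange factor for the GTPase ARF6, was measured at 9.91, 8.71 and 9.13 RPKM in pacing and at 7.34, 5.4 and 7.99 RPKM in sham, again without overlap (log2 difference 0.39, adjusted p = 0.493 with limma, and 0.24 without sham replicate 2). LIN7B, a small PDZ protein that pairs with CASK, was measured at 27.7, 25.4 and 25.2 RPKM in pacing and at 23.6, 23.0 and 22.0 RPKM in sham (log2 difference 0.18, adjusted p = 0.585).

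Among 14 membrane proteins that DLG scaffolds hold, 10 were higher by arm mean (median 0.044), and 5 of 14 without sham replicate 2 (median -0.053). CACNG3, an auxiliary subunit of AMPA receptors, was measured at 16.7, 20.0 and 19.5 RPKM in pacing and at 16.9, 10.7 and 9.38 RPKM in sham. Sham replicate 1 lay within the range of pacing, and the other sham libraries lay well below it (log2 difference 0.60, adjusted p = 0.467 with limma, and 0.53 without sham replicate 2). The NMDA receptor subunit GRIN2B was measured at 8.63, 11.4 and 9.73 RPKM in pacing and at 11.2, 2.10 and 8.0 RPKM in sham, and its log2 difference of 0.63 was 0.049 without sham replicate 2. GRIN2A, another NMDA receptor subunit, had a log2 difference of 0.36, and 0.13 without that library.

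Of 10 SHANK partners, 8 were higher by arm mean (median 0.099), and 8 were so without sham replicate 2 (median 0.037). LZTS3, which binds the PDZ domain of SHANK proteins, stood at 34.1 ± 4.29 RPKM in pacing libraries, against 27.4 ± 5.48 RPKM in sham libraries (log2 difference 0.32, adjusted p = 0.587 with limma, and 0.22 without sham replicate 2). CACNA1D, an L-type calcium channel subunit, was lower by arm mean, at 2.18 ± 0.298 RPKM in pacing libraries, against 2.78 ± 0.413 RPKM in sham libraries (log2 difference -0.25, adjusted p = 0.596 with limma, and -0.34 without sham replicate 2). ARHGAP44, a GTPase-activating protein of dendritic spines, stood at 24.7 ± 2.40 RPKM in pacing libraries, against 21.8 ± 2.96 RPKM in sham libraries, with a log2 difference of 0.18, and 0.28 without sham replicate 2. Of 11 HOMER partners, which include SHANK1 and SHANK3, 8 were higher by arm mean (median 0.11), and 5 of 11 without sham replicate 2 (median -0.035).

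The enzymes that add or remove palmitate on PSD-95, a modification that anchors it to the membrane, showed no common direction, with 3 of 6 tested genes higher (median -0.022) and 2 of 6 without sham replicate 2. ZDHHC2, a palmitoyltransferase, stood at 5.63 ± 0.537 RPKM in pacing libraries, against 4.89 ± 0.679 RPKM in sham libraries. ZDHHC3, another palmitoyltransferase, stood at 4.63 ± 0.298 RPKM in pacing libraries, against 5.33 ± 0.728 RPKM in sham libraries, and its log2 difference of -0.16 was -0.082 without sham replicate 2. The depalmitoylase ABHD17B stood at 5.01 ± 0.389 RPKM in pacing libraries, against 6.36 ± 2.10 RPKM in sham libraries. Sham replicate 2, at 8.78 RPKM, was its highest library, and the log2 difference of -0.26 was -0.037 without it. Other scaffolds with a guanylate kinase domain were lower by arm mean in 8 of 12 genes (median -0.041), and in 5 of 12 without sham replicate 2 (median 0.026). MAGI2 was measured at 28.6, 28.8 and 29.7 RPKM in pacing and at 29.8, 32.9 and 34.4 RPKM in sham, where the arms were apart by a narrow gap (log2 difference -0.15, adjusted p = 0.636 with limma). MAGI3 had a log2 difference of -0.31 (adjusted p = 0.584 with limma), and -0.22 without sham replicate 2. MPP6 had a log2 difference of 0.16 (adjusted p = 0.667 with limma).

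The genes whose levels over the 6 libraries were most like the leading member of each family were taken by Pearson r of log2(RPKM + 1). For SHANK1 they were OPCML (r = 0.99 over 6 libraries, 0.97 without sham replicate 2), SKAP2 (0.99 and 0.97) and MBTPS1 (0.99 and 0.98). For DLG4 they were PLK4 (0.99 and 0.99), ACTR3B (0.99 and 0.97) and the microRNA locus MIR761 (0.99 and 0.96). PLK4 averaged 0.629 RPKM in pacing and 0.474 RPKM in sham, close to the filter of 0.5 RPKM. For HOMER1 the genes were KCMF1 (0.997 and 0.97), VEZT (0.99 and 0.92) and LRRC46 (0.99 and 0.88). These values are the highest of many correlations over few libraries and are given as a description.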

How the data were processed

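Hippocampal mRNA of 3 pacing and 3 sham libraries was used; the exosome miRNA table holds no scaffold gene and was not used. The submitters' processing notes name Trimmomatic 0.36, the aligner STAR 2.5.3a and the counter featureCounts; strand setting and annotation release are not stated. The authors deposited RPKM values, scaled to summed exon length and to the reads assigned to genes. RPKM multiplied by length was a whole multiple of 1 read, within 0.001, for 100% of values above 0, so read numbers are known. Libraries were grouped by title. The test was limma-trend (limma 3.58.1, R 4.3.3) on log2(RPKM + 1) for genes averaging 0.5 RPKM or more over the 6 libraries, with Benjamini-Hochberg adjustment over all 16090 genes at a threshold of 0.05. Fold changes on this scale understate the change of low genes. The limma test was tried on simulated reads in which all genes shared 1 setting for spread and no library lay apart. It called 40% of genes changed 1.5-fold, 96% of those changed 2-fold and 21 unchanged genes. Family shares were compared by a two-sided exact permutation test. Alternatives changed the pseudocount, filter, scaling, weights, variance trend and threshold, added the replicate block and left out each library. Named genes are all members, the 3 partner genes of smallest p per list and the 3 genes most correlated with the leading member of each family; a gene that this rule took is not reported here. Members, lists and alternatives were chosen with earlier results of these data known. CanFam3.1 was recognised from the sequence names in the deposited table. The markers ALDH1L1, TREM2 and ARC and the partner ABHD17C were not analysed here.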

Additional observations from a re-analysis of the deposited data

How the results depend on the processing

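No member and no partner gene was called under any alternative run; both planned edgeR tests on recovered reads were not run. Apart from leaving out a library, 86 of 90 member values kept their direction; DLG2 was -0.034 with scaling to pan-neuronal markers and -0.095 with library weights, and HOMER3 was 0.012 with median-of-ratios scaling and 0.087 with library weights. Leaving out 1 library gave log2 differences from -0.0065 to 0.16 for SHANK2, -0.30 to 0.093 for DLG1, -0.15 to 0.12 for DLG2, -0.044 to 0.36 for DLG3, -0.094 to 0.25 for HOMER1 and -0.18 to 0.21 for HOMER3, with sham replicate 2 giving the sign change in each, and pacing replicate 3 also for DLG2 and HOMER3; SHANK1 (0.14 to 0.27), SHANK3 (0.15 to 0.32) and DLG4 (0.083 to 0.28) kept their sign. Differences in family share, in percentage points, ranged from -0.884 to 1.63 for SHANK1, -0.506 to 1.62 for SHANK3, -7.21 to 1.39 for DLG1, -2.79 to 1.35 for DLG2, -0.667 to 3.65 for DLG3, -5.14 to 7.55 for HOMER1 and -7.55 to 5.14 for HOMER3. The 4 genes called among all tested became 7 with no filter, 7 with scaling to pan-neuronal markers, 23 with library weights, 7 at an adjusted p of 0.1, and 3 to 95 when 1 library was left out (95 without sham replicate 1, 9 without sham replicate 2). The causes were not tested.

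With the replicate number as a block 7 genes were called and 0 members. Deviations of same-numbered libraries from their arm means correlated at -0.11, 0.064 and -0.011, and pacing replicate 1 correlated best with sham replicate 3. These values showed no likeness of same-numbered libraries. With 3 libraries per arm they cannot decide whether the numbers pair the libraries. Median-of-ratios scaling put 53.1% of all tested genes higher in pacing, against 41.1% as deposited, and 8 of 9 members; scaling to pan-neuronal markers put 30.8% and 6 of 9. With 3 libraries per arm, the intervals of the members leave differences of up to 0.64 on the log2 scale undecided.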
